A study of Mus musculus with 15 samples.

Results

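PU.1, Spi-B and Spi-C, the products of Sfpi1, Spib and Spic, form one subfamily of the Ets transcription factors, and the chromatin of their genes was followed while a mouse pre-B cell line turned into macrophage-like cells. The members were chosen by name and are 3 of the 21861 protein-coding genes whose start could be measured. The cells were C10, a single line derived from HAFTL pre-B cells that expresses C/EBPα fused to an estrogen receptor together with GFP, so that β-estradiol drives the fusion protein into the nucleus. Immunoprecipitated chromatin was sequenced (ChIP-seq) for H3K4Me1, a mark of enhancers whether active or poised, for H3K27Ac, a mark of active enhancers and promoters, and for H3K27Me3, the mark of Polycomb repression. There were 15 libraries, 1 for each mark at 0, 3, 12, 24 and 48 h. The uninduced cells carried the same fusion protein and their control treatment was the ethanol solvent, whereas induced cells received β-estradiol with IL-3 and CSF-1, so the effects of the fusion protein, of the cytokines and of time in culture cannot be told apart. No test between times was possible with single libraries, and none is given: a difference is described by its tags, by its log2 ratio with 5 tags added to each count, and by an exact 95% interval that covers counting error only. A difference is called when it is at least 2-fold, which is a log2 ratio of 1 in either direction.

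The libraries held 11041458 to 17847176 tags for H3K4Me1, 15929378 to 18564296 for H3K27Ac and 15358857 to 31557475 for H3K27Me3, and each was reduced to 1 tag per position and to the smallest library of its mark. The labelled conversion was visible at marker genes: 9 of 9 pre-B marker starts were at least 2-fold lower in H3K27Ac at 48 h than at 0 h, and 8 of 8 macrophage marker starts were at least 2-fold higher. Of all 21861 starts, 9.57% were lower and 5.38% higher by the same rule. The 4 T cell marker starts held 15 to 28 H3K27Ac tags in sum at any time, the 3 erythroid starts 83 to 113, the 3 fibroblast starts 27 to 73 and the 3 plasmacytoid dendritic starts 381 to 1081. Among these last groups Tcf4 fell (log2 -1.23) and Pdgfrb rose (1.23, from 18 to 49 tags). Equal library totals do not fix the scale of a mark. Setting the libraries equal over bins without enrichment, or over bins enriched at all 5 times, would shift the 48 h ratio by -0.07 or 0.41 in H3K27Ac and by 0.55 or 0.06 in H3K4Me1, so calls near 2-fold depend on this choice. Over bins enriched at all times 7 of the 9 pre-B markers were lower, without Cd79b (-0.85) and Ebf1 (-0.92), all 8 macrophage markers were higher, and Tcf4 was at -0.83. On this scale 1129 of the 21861 starts were lower and 2110 higher.

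PU.1 is required for both macrophages and B cells, and its amount helps set the choice between them, with high amounts in macrophages and low amounts in B cells. Its gene is controlled by the promoter together with an upstream regulatory element, which binds PU.1 itself, RUNX and C/EBP factors, among others. Spi-B is found mainly in B cells and plasmacytoid dendritic cells and shares many DNA targets with PU.1. Spi-C acts in red pulp macrophages of the spleen, which recycle iron from haem.

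Sfpi1 (ENSMUSG00000002111.8) lies on the plus strand of chromosome 2 at chr2:90922547-90955913 in mm9. The transcript with the longest coding sequence starts at 90936253, and this is called the main start. The known element lies about 14 kb before it, and the centre of its 3 kb window was set at 90922253. A pair of annotated transcripts begin there too, at 90922547 and 90922565, so the element window and the windows at these 2 starts overlap. The stretch of 300 bases below is shown because, of all stretches of this length in the element window, it held most matches to the motifs searched. It is at chr2:90923092-90923391 on the plus strand of mm9, in the first intron of the transcripts that begin at the element, and capitals mark the matches.

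Sfpi1 upstream element: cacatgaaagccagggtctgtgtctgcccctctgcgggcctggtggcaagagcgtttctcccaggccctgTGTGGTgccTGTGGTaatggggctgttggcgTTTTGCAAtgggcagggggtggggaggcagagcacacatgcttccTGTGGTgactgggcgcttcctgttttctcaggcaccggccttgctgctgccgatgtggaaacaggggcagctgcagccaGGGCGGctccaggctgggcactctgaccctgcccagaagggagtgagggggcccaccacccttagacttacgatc

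In order, the capitals are RUNX (TGTGGT), RUNX, C/EBP (TTGCNNAA, read on the reverse strand), RUNX and Sp1 (GGGCGG), which made 5 of the 15 matches found on both strands of the 3 kb. The other 10 were 5 E-boxes (CAGGTG), 2 RUNX motifs, 1 C/EBP motif, 1 AP-1 motif (TGANTCA) and 1 PU.1 box (GAGGAAGT, at -15.12 kb from the main start). The 300 bases at the centre of the window held only the AP-1 match, and the 300 bases at the centre of the bin with most H3K27Ac tags held none. Of 14849 RefSeq promoters of 300 bases, 14.5% held at least 1 RUNX match and 0.101% held 3 or more, but the stretch shown was selected for its matches after the window had been read, so these shares are background and not a comparison. A match is a description of letters and not evidence of binding.

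At the main start of Sfpi1 H3K27Ac was high before induction and stayed high. The 3 kb window held 728 tags at 0 h, 867 at 3 h, 862 at 12 h, 933 at 24 h and 630 at 48 h, which is 39.0 times the genome mean at 0 h and 33.7 times at 48 h. The highest library was that of 24 h and the lowest that of 48 h, and no time differed from 0 h by 2-fold. The log2 ratio of 24 h to 0 h was 0.36, or 0.91 over bins without enrichment and 0.38 over bins enriched at all times. Keeping 1 tag per position limits high counts: before thinning, the fullest 250 bases were 82.8% filled at 24 h. A correction for filled positions, chosen after seeing the data, gave 0.64 at 24 h. The log2 ratio of 48 h to 0 h was -0.21 (95% interval -0.36 to -0.05), but it was 0.20 when the libraries were set equal over bins enriched at all times, so its direction depends on the scale. Among all protein-coding starts the window stood at percentile 96.8 at 0 h and 97.8 at 48 h. At 3, 12, 24 and 48 h 4.43%, 4.42%, 4.79% and 5.38% of all starts were called higher in H3K27Ac than at 0 h, and 1.9%, 3.34%, 8.91% and 9.57% lower. H3K4Me1 held 123, 156, 172, 143 and 149 tags (log2 0.47 at 12 h and 0.27 at 48 h, the latter with an interval of -0.07 to 0.61). Over bins without enrichment the 12 h ratio was 1.09, which would be called higher, and over bins enriched at all times it was 0.22. The bins from 0 to 3 kb past this start, limits set after the bins were seen, went from 142 H3K4Me1 tags to 125, 78, 43 and 40. Their 48 h ratio was -1.71, or -1.21 over bins without enrichment and -1.66 over bins enriched at all times. The course of H3K4Me1 at the promoter therefore depends on where the window lies. H3K27Me3 held 5 to 13 tags, under the genome mean at every time. The further start at 90936937 held more H3K27Ac, with 1007 tags at 0 h and 928 at 48 h.

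In 3 kb centred on each, the upstream element carried more H3K27Ac than the main start and more than nearly any gene start. Its 3 kb held 1248, 1214, 1347, 1441 and 1077 H3K27Ac tags, between percentiles 99.7 and 99.99 of all starts. The bins from 0 to 3 kb past the main start, limits set after the bins were seen, held 1117, 1256, 1337, 1534 and 1089. These counts were above those of the element at 3, 24 and 48 h, so the order depends on where the promoter window lies. At the element the ratio of 48 h to 0 h was -0.21 (interval -0.33 to -0.09), or 0.20 over bins enriched at all times. The ratio of 24 h to 0 h was 0.21, or 0.77 over bins without enrichment. Keeping 1 tag per position limits such counts: before thinning, 41.6% of the 3000 positions were filled at 0 h, 55.6% at 24 h and 39.0% at 48 h, and the fullest 250 bases reached 81.2% at 24 h. A correction for filled positions, chosen after seeing the data, gave ratios of 0.45 at 24 h and -0.17 at 48 h, still under 2-fold.

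H3K4Me1 at the element was lowest at 24 and 48 h. The element held 336 tags at 0 h, 403 at 3 h, 277 at 12 h, 153 at 24 h and 179 at 48 h. The ratio to 0 h was -1.11 (interval -1.39 to -0.84) at 24 h and -0.89 (-1.15 to -0.63) at 48 h. With the libraries set equal over bins without enrichment these were -0.48 and -0.35, so the fall at 24 h passed 2-fold on 2 of 3 scales in this window. In 5 kb around the same centre the 24 h ratio was -0.66 (540 to 341 tags, interval -0.85 to -0.46), under 2-fold. Corrected for filled positions, the 3 kb ratio was -1.21 at 24 h and -1.02 at 48 h. In 3 kb tiles of the genome that held an enriched bin at either time, 9.92% were called lower at 24 h. At 0 h the element stood at percentile 99.99 of all starts for this mark, and at 48 h at 99.5. In steps of 250 bases past the centre of the window H3K27Ac stayed where H3K4Me1 fell, and for example the step from 500 to 750 bases went from 21 tags to 28, 7, 5 and 9 while H3K27Ac in it went from 163 to 164, 167, 186 and 160. The steps that hold the stretch printed above had 12 and 21 H3K4Me1 tags at 0 h and 5 and 5 at 48 h.

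**Figure D1:**
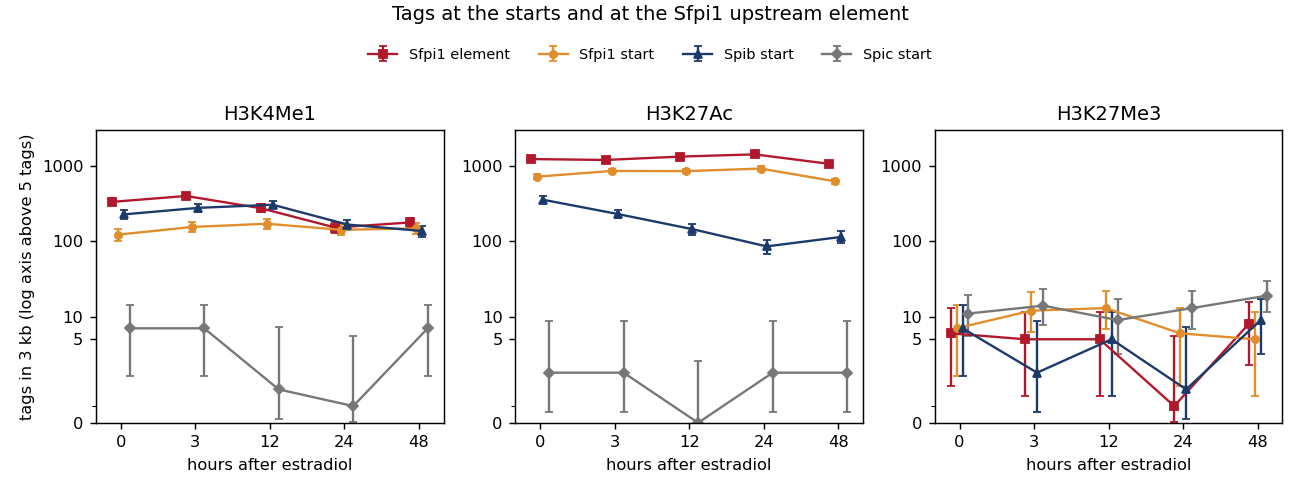
Tags in 3 kb (vertical axis, logarithmic above 5 tags) at the main starts of Sfpi1, Spib and Spic and at the Sfpi1 upstream element, against hours after estradiol, 1 panel per mark. Points are single libraries and bars are exact 95% Poisson intervals of the count; the H3K27Ac tags at the Spib start went from 359 to 115, those at the Sfpi1 element stayed above 1000, and Spic stayed below 20 in all marks.

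Both active marks spread over Sfpi1, between the element and the promoter and in the body of the gene. Of the 50 bins of 1 kb over the gene and 30 kb upstream, 25 were enriched in H3K27Ac at 0 h, then 31, 36, 39 and 40 (a bin is enriched when it holds at least 16 tags, 13 for H3K4Me1, a Poisson tail under 0.001). In the whole genome 4.56%, 4.61%, 5.27%, 5.57% and 6.57% of bins were enriched in H3K27Ac at the 5 times, and 7.29%, 7.5%, 7.58%, 8.49% and 8.96% in H3K4Me1. Of the 41 Sfpi1 bins enriched at 0 or 48 h, 23 were at least 2-fold higher at 48 h and 2 were lower, against 38.1% higher and 21.2% lower of all such bins in the genome. For H3K4Me1, 36 bins were enriched at 0 h and 43 at 48 h, and of the 47 enriched at either time 19 were higher and 5 lower, against 29.8% and 13.5% in the genome. Neighbouring bins share fragments and are not independent, and these counts get no test. With the libraries set equal over bins without enrichment, 26 bins were higher and 3 lower in H3K4Me1, and 21 higher and 3 lower in H3K27Ac. Over bins enriched at all times the H3K4Me1 counts were again 19 and 5, and those of H3K27Ac 24 and 1. The genome shares above are for equal library totals, so the counts on the 2 other scales have no share beside them.

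The largest H3K27Ac increase of the 41 bins was between -9 and -8 kb, a bin that held 12 tags at 0 h and 30, 76, 129 and 160 afterwards (log2 3.28). The bins on either side moved with it, from 13 to 150 tags between -10 and -9 kb (3.11) and from 9 to 124 between -8 and -7 kb (3.20). H3K4Me1 in the same 3 bins went from 24, 16 and 16 tags at 0 h to 96, 86 and 111 at 48 h. Over the whole stretch from -12 to -2 kb, limits set after the bins were seen, the 10 bins held 309 H3K27Ac tags at 0 h, 489 at 3 h, 989 at 12 h, 1379 at 24 h and 1224 at 48 h (1.97 at 48 h). Their H3K4Me1 tags were 346, 384, 1062, 1088 and 1028 (1.56). On the 2 other scales the 48 h ratios were 1.90 and 2.38 for H3K27Ac and 2.11 and 1.62 for H3K4Me1, so both marks rose on every scale. On equal library totals the ratio was 0.65 in H3K27Ac and 0.15 in H3K4Me1 at 3 h, and 1.66 and 1.60 at 12 h. The 2 other scales would shift the 3 h ratio by -0.28 or 0.13 in H3K27Ac and by 0.30 or -0.17 in H3K4Me1. Which mark had risen more by 3 h therefore depends on the scale. The bin between -12 and -11 kb, next to the element, had the most H3K4Me1 of the interval at 12 h, with 235 tags against 70 at 0 h.

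The body of the gene gained both marks, and part of it was enriched before induction. At 0 h the bins from 3 to 8 kb and from 10 to 11 kb past the start were enriched in H3K4Me1, and those from 3 to 6 kb in H3K27Ac. From 3 to 19 kb past the start, limits set after the bins were seen that leave out the bins from 0 to 3 and from 19 to 20 kb, H3K27Ac summed to 164 tags at 0 h and to 221, 443, 572 and 697 afterwards (log2 2.05), and H3K4Me1 to 244, 342, 607, 757 and 770 (1.64). On the other scales the ratios were 1.98 and 2.46 for H3K27Ac and 2.19 and 1.70 for H3K4Me1. The largest H3K4Me1 increase of the 47 bins was here, between 12 and 13 kb, from 6 tags to 20, 38, 57 and 63 (2.63). Over the full interval of 50 bins the sum was 4168 H3K27Ac tags at 0 h and 5136 at 48 h (0.30, interval 0.24 to 0.36), a ratio under 2-fold.

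At Sfpi1 5 bins were called lower in H3K4Me1, which lay between -19 and -17 kb, between -14 and -13 kb in the element (85 to 38 tags, log2 -1.07) and between 1 and 3 kb past the start. In H3K27Ac the 2 bins called lower lay between -24 and -23 kb (51 to 21 tags, -1.11) and between -19 and -18 kb. The interval also holds the start of Slc39a13, at -25.8 kb. Which gene the tags between -24 and -23 kb belong to cannot be told from their position. From -20 to -16 kb, limits also set after the bins were seen, H3K4Me1 fell from 213 tags to 96 at 48 h (log2 -1.11, or -0.58 and -1.05 on the other scales), and H3K27Ac went from 486 tags to 257 (-0.91). The bin between -19 and -18 kb had the smallest ratio of the interval in H3K27Ac, from 49 tags to 38, 56, 36 and 13 (-1.58). Past the start, H3K4Me1 between 2 and 3 kb fell from 82 tags to 65, 18, 9 and 9 (-2.64), the smallest ratio of its 47 bins, while H3K27Ac in that bin held 218, 219, 314, 390 and 273 tags. The bin between 1 and 2 kb had the most H3K27Ac of the interval at 48 h, with 518 tags against 522 at 0 h, and 2 H3K4Me1 tags at 48 h against 15 at 0 h. No bin of the interval was enriched in H3K27Me3 at any time, where 6.86%, 6.71%, 8.05%, 8.33% and 8.81% of all bins were enriched at the 5 times (at least 16 tags), and its 50 bins held 101 to 168 tags, 0.32 to 0.54 of the genome mean.

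**Figure D2:**
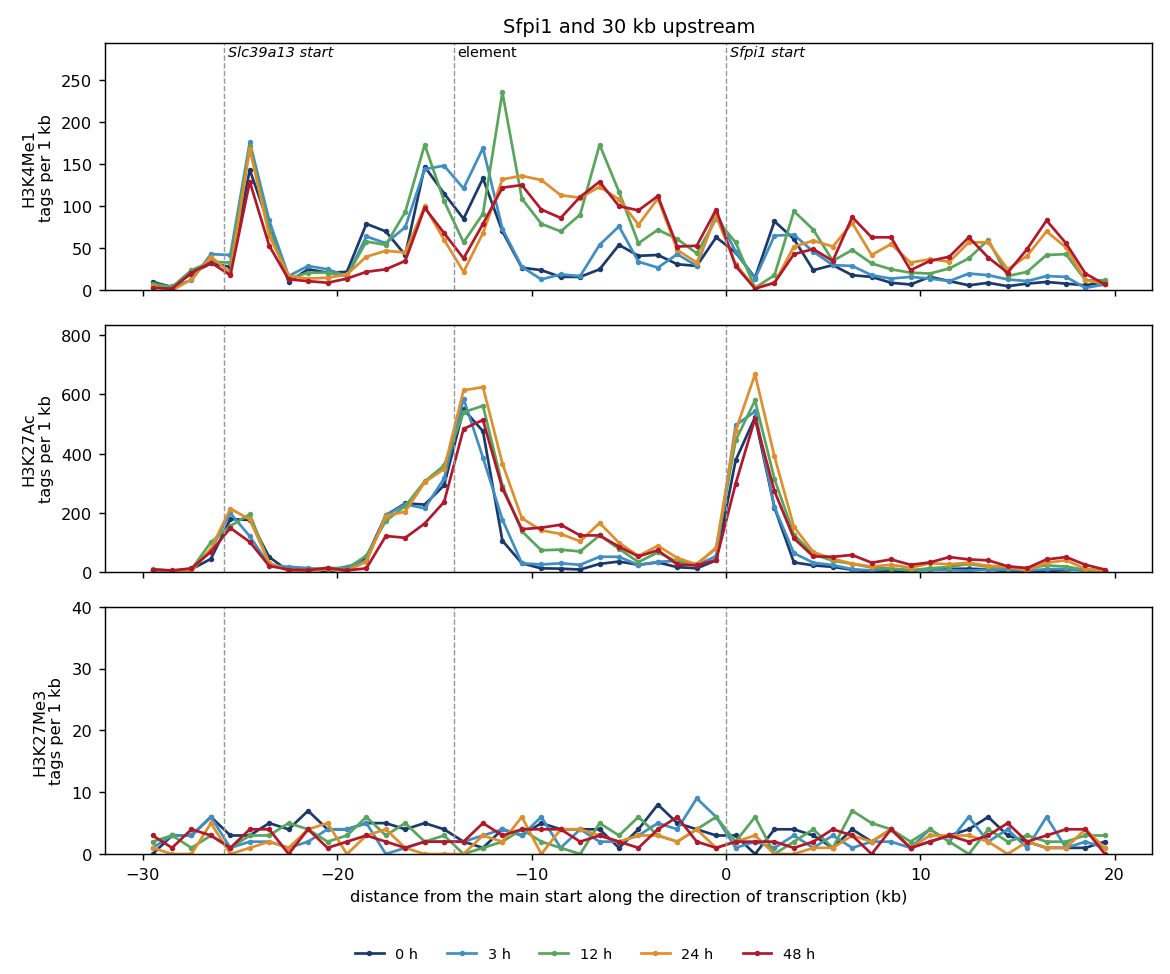
Tags per 1 kb bin over Sfpi1 and the 30 kb before it, against distance from the main start in kb along the direction of transcription, 1 panel per mark and 1 line per time. Dashed lines mark the Sfpi1 start, the centre of the upstream element 14 kb before it and the start of the neighbour Slc39a13; the H3K27Ac peaks at the element and start keep their height while the bins between -12 and -6 kb fill in from 12 h, and H3K27Me3 stays under 10 tags.

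Spib (ENSMUSG00000008193.6) is on the minus strand of chromosome 7 at chr7:51781365-51787441 in mm9, with 1 annotated start at 51787441. The RefSeq promoter is shown because the H3K27Ac around this start fell, and it is given for the 250 bases before the start, at chr7:44532072-44532321 on the minus strand of GRCm38.p6, a build other than that of the tags. Capitals mark a C/EBP match (TTGCNNAA) and an Sp1 match (GGGCGG), both read on the reverse strand.

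Spib promoter: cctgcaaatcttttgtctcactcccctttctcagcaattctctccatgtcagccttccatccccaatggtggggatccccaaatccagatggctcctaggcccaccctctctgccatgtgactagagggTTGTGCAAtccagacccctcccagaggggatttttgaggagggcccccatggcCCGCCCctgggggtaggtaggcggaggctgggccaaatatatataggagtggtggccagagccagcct

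C/EBP and Sp1 matches were in 9.93% and 48.2% of the 14849 promoters. The 300 bases searched held no match to the PU.1 box, the Ets core with flank (CGGAAGT), RUNX, AP-1, the octamer (ATGCAAAT), NF-kB, the E-box or TATAAA, which says only that these letters are not in this window. The Spic promoter of the same table, at chr10:88682974-88683273, held no match to any of the 10 motifs and is not printed. The table had entries for 2 of the 3 members, without Sfpi1.

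H3K27Ac at the Spib start was lower at all 4 later times than at 0 h, and at least 2-fold lower from 12 h. The window held 359 tags at 0 h, 232 at 3 h, 146 at 12 h, 86 at 24 h and 115 at 48 h. The Poisson interval at 0 h (323 to 398) did not meet that at 48 h (94.9 to 138). The log2 ratio was -0.62 at 3 h, -1.27 at 12 h, -2.0 at 24 h and -1.60 (interval -1.90 to -1.30) at 48 h. Spib was the 1 member of 3 whose start was called lower, in a genome where 9.57% of starts were called lower and 5.38% higher at 48 h, or 1129 lower and 2110 higher of the 21861 starts with the libraries set equal over bins enriched at all times. Spic could not be called lower: it had 3 tags at 0 h, and with 5 tags added its count of 0 at 12 h gave -0.68. The share over all starts also includes other starts with too few tags to be called lower. Of the 16826 starts with at least 20 H3K27Ac tags summed over the 5 times, 1955 were lower at 48 h and 1145 higher. On the 2 other scales the 48 h ratio of Spib was -1.67 and -1.20, so the fall passed 2-fold on all 3. At 3 h it was -0.90 and -0.49 on these scales. The count at 48 h was above that at 24 h (log2 0.40), but over bins without enrichment the ratio to 0 h went from -1.46 to -1.67, so the direction of this last step depends on the scale. The window stood at percentile 82.0 of all starts at 0 h and 62.1 at 48 h, and it held 19.2, 12.4, 7.81, 4.60 and 6.15 times the genome mean at the 5 times.

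H3K4Me1 at the Spib start held 229 tags at 0 h, 280 at 3 h, 308 at 12 h, 168 at 24 h and 138 at 48 h. The value at 12 h was the highest (log2 0.42, interval 0.17 to 0.67) and that at 48 h the lowest (-0.71, -1.02 to -0.41), and none was called on this scale. With the libraries set equal over bins without enrichment the 12 h ratio was 1.04, past 2-fold, and on the third scale it was 0.17. In H3K4Me1 1.67%, 3.19%, 3.15% and 3.36% of all starts were called higher at the 4 later times than at 0 h, and 1.77%, 4.13%, 6.74% and 9.81% lower. At 48 h the ratio over bins without enrichment was -0.17. In 6 kb around the start it was -1.16. H3K27Me3 held 2 to 9 tags at this start, and none of the 37 bins was enriched in it at any time.

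Over Spib and 30 kb upstream, 22 of the 28 bins enriched in H3K27Ac at 0 or 48 h were at least 2-fold lower at 48 h and 1 was higher, against 21.2% and 38.1% in the genome. The sum over the 37 bins was 3769 tags at 0 h and 1451 at 48 h (log2 -1.37, interval -1.46 to -1.29, or -0.96 over bins enriched at all times, where it is under 2-fold). H3K4Me1 summed to 1730 and 743 tags (-1.21, -1.34 to -1.09, or -0.66 over bins without enrichment), with 15 of 26 bins lower and none higher, against 13.5% and 29.8% in the genome. Over bins without enrichment 10 of the 26 were lower. The H3K27Ac count on the 2 other scales was 22 and 20 lower. The genome shares of bins are for equal library totals and are not given on these scales. From 6 kb before the start to 3 kb past it, limits set after the bins were seen, H3K27Ac held 956, 558, 339, 204 and 224 tags (-2.07 at 48 h, or -2.14 and -1.67 on the other scales) and H3K4Me1 830, 870, 791, 457 and 313 (-1.39, or -1.33 over bins enriched at all times and -0.85, under 2-fold, over bins without enrichment). Most of the part before the start lies inside the neighbouring gene Pold1, and some annotated Pold1 transcripts start between -4 and -1 kb. Which of the 2 genes the tags of this part belong to cannot be told from their position.

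Bins differed within the interval, which holds other genes. Pold1, which encodes the catalytic subunit of DNA polymerase delta, ends just before Spib and has its main start at -16.8 kb from the Spib start, and Nr1h2, which encodes the oxysterol receptor LXRβ, has its main start at -21.9 kb. The smallest H3K27Ac ratio was between -16 and -15 kb, just inside Pold1, from 190 tags to 79, 49, 19 and 23 (-2.80), and the bin of the Pold1 start went from 259 to 44 (-2.43). The bins from -23 to -21 kb at the Nr1h2 start held 398, 506, 341, 425 and 357 tags (-0.15), so 2 starts in the interval differed in their course. The smallest H3K4Me1 ratio was between -15 and -14 kb, from 56 tags to 4 (-2.76).

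The end of Spib held more H3K27Ac than its start and fell too. From 3 to 7 kb past the start, limits set after the bins were seen, it went from 1093 tags to 588, 627, 605 and 501 (log2 -1.12, or -1.19 and -0.71 on the other scales), and 3 of these 4 bins were called lower. The bin with most tags at 0 h was between 5 and 6 kb past the start, with 365 tags and then 140, 196, 167 and 113 (log2 -1.65). The bin before it, from 4 to 5 kb, had the most at 48 h, with 311 tags at 0 h and 163, 198, 251 and 231 afterwards (-0.42). Mybpc2 starts 7.4 kb past the Spib start, and its 3 kb window held 283, 184, 171, 96 and 78 tags (-1.79). Which gene these tags belong to cannot be told apart from their position.

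**Figure D3:**
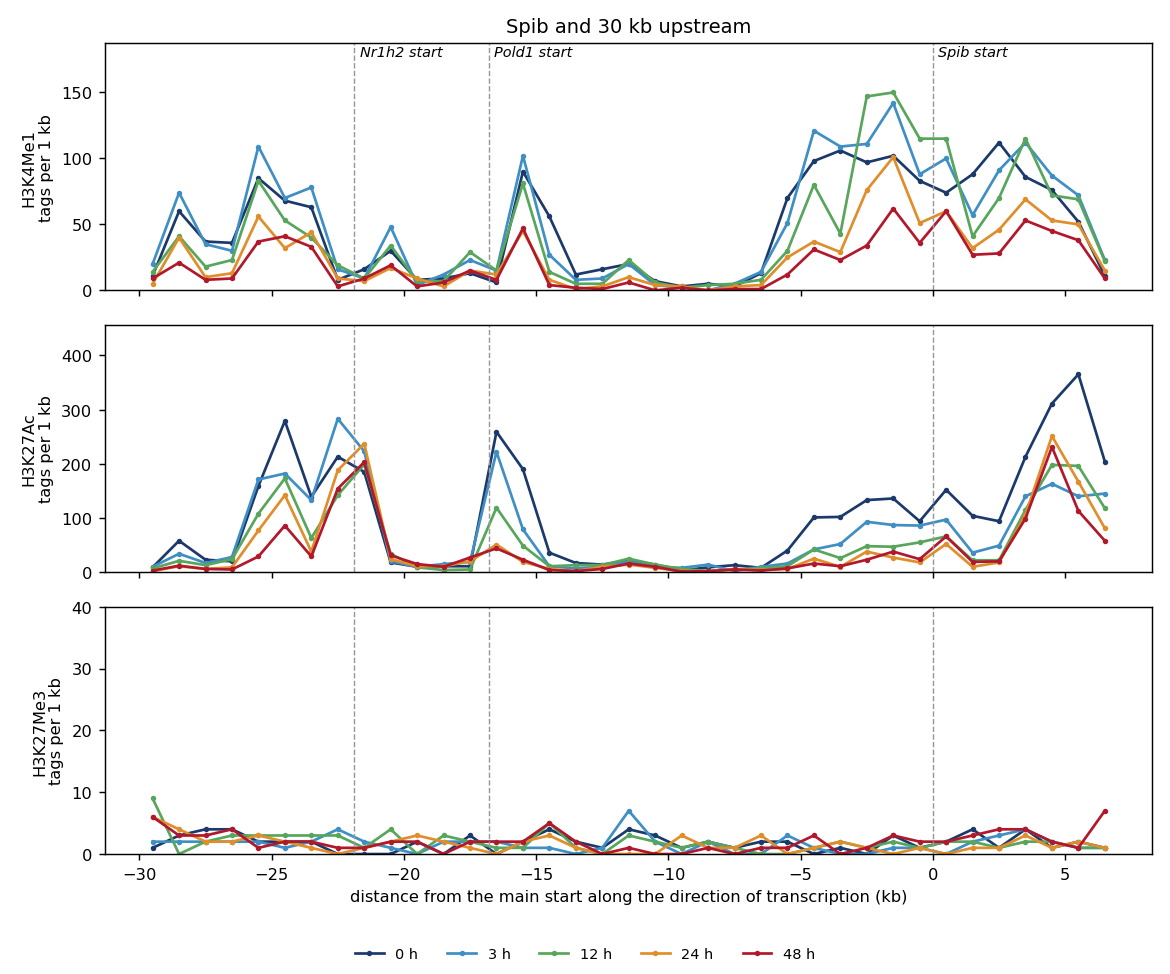
Tags per 1 kb bin over Spib and the 30 kb before it, against distance from its start in kb, 1 panel per mark and 1 line per time, with dashed lines at the starts of Spib, Pold1 and Nr1h2. H3K27Ac falls around the Spib and Pold1 starts and beside the Nr1h2 start, stays near 200 tags in the bin of the Nr1h2 start, and keeps 231 tags between 4 and 5 kb at 48 h.

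Spic (ENSMUSG00000004359.9), on the minus strand of chromosome 10 at chr10:88137517-88147760 in mm9, had almost none of the 2 active marks. Its main start at 88145768 held 3, 3, 0, 3 and 3 H3K27Ac tags and 7, 7, 2, 1 and 7 H3K4Me1 tags, where the Poisson interval of a count of 0 reaches 3.69. The H3K4Me1 count of 1 at 24 h gave a ratio of -1.0 (interval -1.37 to 0.07), at the 2-fold limit, and in 5 kb, with 9 tags at 0 h and 1 at 24 h, it was -1.22 (-1.58 to -0.16). The other annotated starts, at 88139636 and 88147760, held 0 to 6 H3K27Ac tags and 0 to 8 H3K4Me1 tags. At 88147760, whose window overlaps that of the main start, H3K4Me1 went from 8 tags at 0 h to 0 at 24 h (-1.38, interval -1.38 to -0.34) and was 4 at 48 h. These ratios reach or pass 2-fold from counts below the genome mean and depend on the 5 tags added. At 88139636 H3K27Me3 was 23, 23, 12, 22 and 16 tags, 0.64 to 1.22 times the genome mean and at most percentile 72.2 of all starts, and at 88147760 it was 6 to 14 tags. H3K27Me3 at the main start was 11, 14, 9, 13 and 19 tags, 0.48 to 1.01 times the genome mean, and in 5 kb it was 13 to 29 tags. No enrichment of the active marks was detectable at this depth at any Spic start.

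Of the 39 bins over Spic and 30 kb upstream, 1 became enriched in an active mark. Between -30 and -29 kb H3K4Me1 held 1, 2, 20, 36 and 24 tags (log2 2.27) and H3K27Ac 2, 2, 2, 18 and 11. The first was enriched from 12 h onwards, the latter at 24 h, and the value at 24 h was the highest in both. With the bins shifted by 500 bp, none was enriched in H3K4Me1 at 12 h or in H3K27Ac at 24 h. A stricter Poisson tail, which needs 20 tags, also left none in H3K27Ac at 24 h. The next bin, between -29 and -28 kb, held 0, 0, 1, 10 and 7 H3K4Me1 tags (1.26), past 2-fold but never enriched. Both bins are at the edge of the interval, far from the start, and no gene is tied to them here. For H3K27Me3 1 bin was enriched, at 12 h only.

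**Figure D4:**
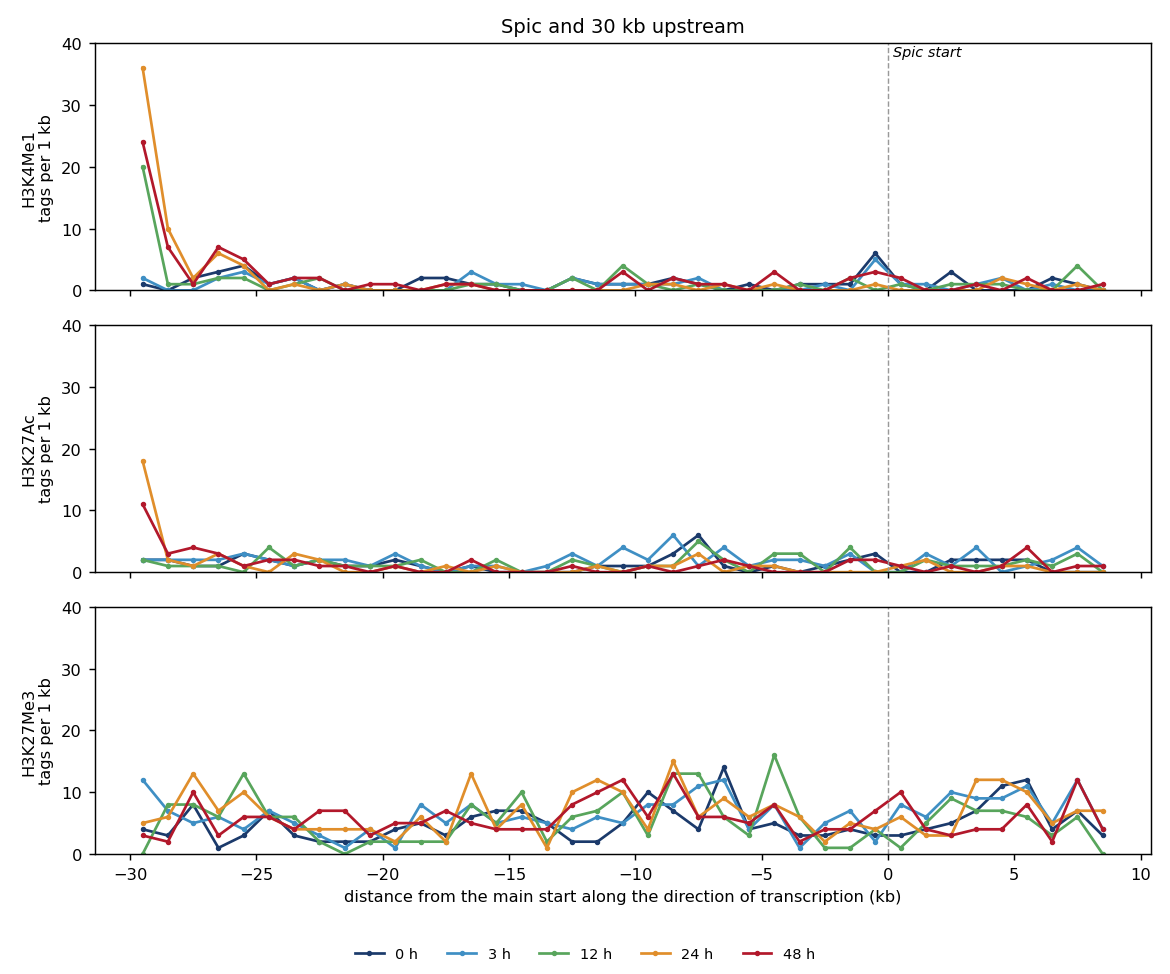
Tags per 1 kb bin over Spic and the 30 kb before it, against distance from its main start in kb, 1 panel per mark and 1 line per time, all on the same axis from 0 to 40 tags. The H3K4Me1 tags of the bin between -30 and -29 kb, 36 at 24 h, stand apart from all other bins, which hold at most 10 H3K4Me1 tags.

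The order of the levels at 0 h was the same in both active marks for Sfpi1 and Spib against Spic but not between them. In H3K27Ac the element (1248 tags) stood above the Sfpi1 start (728), the Spib start (359) and the Spic start (3), and no 2 neighbours in this order had overlapping Poisson intervals. In H3K4Me1 the order was the element (336), Spib (229), Sfpi1 (123) and Spic (7). At 48 h the H3K27Ac order of these windows was unchanged, at 1077, 630, 115 and 3 tags. The bins from 0 to 3 kb past the Sfpi1 start held 1117 tags at 0 h and 1089 at 48 h. The order of the element and Sfpi1 at 48 h therefore depends on where the window lies. The H3K4Me1 counts of the element (179, interval 154 to 207), Sfpi1 (149, 126 to 175) and Spib (138, 116 to 163) then overlapped with their neighbours. In the bins from 0 to 3 kb past the Sfpi1 start, H3K4Me1 was 142 tags at 0 h and 40 at 48 h. The place of Sfpi1 in the H3K4Me1 order at 48 h therefore depends on the window too.

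Other genes of the pathway were read in H3K27Ac at their starts from lists that had been drawn up with earlier results of these data known, against a median log2 ratio of -0.15 over all starts at 48 h, of which 9.57% were called lower and 5.38% higher. Among the 16826 starts with at least 20 tags summed over the 5 times, 1955 were lower and 1145 higher. Of 23 other Ets genes 4 were called lower and none higher, with a median of -0.26. These were Etv4 (581 tags to 211, log2 -1.44), Etv5 (786 to 305, -1.35), Elk3 (457 to 180, -1.32) and Ehf, which had 10 tags or fewer. Over bins enriched at all times only Etv4 of the 23 was lower, against 1129 lower and 2110 higher of the 21861 starts. Of 21 found factors that regulate Sfpi1 or partner PU.1, 10 were lower and none higher, with a median of -0.85, or 5 lower and 1 higher on that scale. Ebf1, Pax5 and Gata1 are among the markers above too, and of the 18 other factors 8 were lower. Myb, a factor of early blood cells, fell most (765, 1012, 455, 263 and 89 tags, -3.03), followed by Pou2f2, the octamer factor Oct-2 (-2.15), Pax5, which keeps B cell identity (-1.93), and Runx1, which binds the Sfpi1 element (924, 905, 812, 724 and 242 tags, -1.91).

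Target genes of the members were read in the same way. Of 26 myeloid genes known as PU.1 targets 16 were higher and none lower, with a median log2 ratio of 1.51, against 5.38% and 9.57% of all starts. All 8 macrophage markers given above are in this list, and of the 18 other genes 8 were higher and none lower, with a median of 0.90. Msr1, the scavenger receptor A, went from 1 tag to 6, 92, 373 and 429 (6.18, a value that depends on the 5 tags added). Cd14, the lipopolysaccharide co-receptor, went from 34 tags to 1276 (5.04), Itgax, the integrin CD11c, from 14 to 174 (3.24), and Fcer1g, the shared Fc receptor gamma chain, from 71 to 653 (3.11). Of 16 found B cell genes known as PU.1 or Spi-B targets 12 were lower and 1 higher, with a median of -1.27, or 7 lower over bins enriched at all times. This list shares 4 genes with the pre-B markers, and of the other 12 genes 8 were lower and 1 higher. Bach2 (515 to 91 tags, -2.44), Cd22 (-2.01), Cd79a (-1.98) and Blk (28 to 4 tags, -1.87) led the falls, and Bcl6, a repressor of germinal centre B cells that macrophages also express, was the one higher (192 to 610 tags, 1.64). Of 13 genes of the iron-recycling macrophages in which Spi-C acts, most but not all of which handle haem or iron, 3 were higher, with a median of 0.49: Treml4, a receptor of the TREM family (5 to 23 tags, 1.49), Blvrb, a biliverdin reductase (96 to 250, 1.34), and Slc11a1, a metal transporter of phagosomes (210 to 443, 1.06, or 0.99 over bins without enrichment). Tfrc, the transferrin receptor, was lower (807 to 345 tags, -1.21, or -0.81 over bins enriched at all times). Vcam1 (4 tags at 0 h and 4 at 48 h), Slc40a1 (4 and 7), Cd163 (7 and 6), Slco2b1 (9 and 10) and Trf (4 and 12) had few tags at both times. Over bins enriched at all times 6 of the 13 were higher, Trf among them, and none lower, against 2110 higher and 1129 lower of the 21861 starts.

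**Figure D5:**
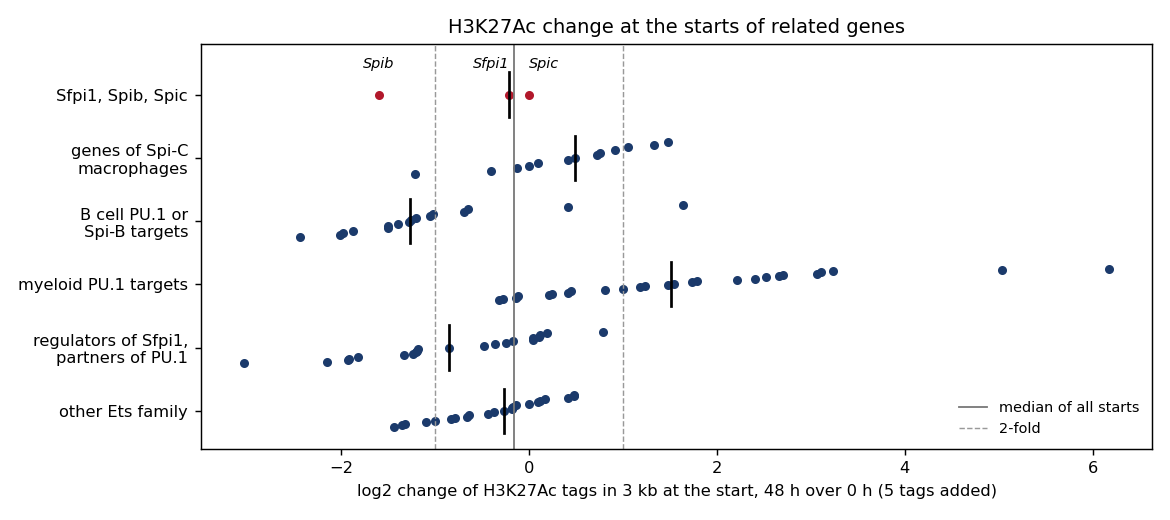
Log2 change of H3K27Ac tags in 3 kb at the start, 48 h over 0 h with 5 tags added (horizontal axis), for every gene of 5 lists and for Sfpi1, Spib and Spic. Points are genes, black bars are list medians, the grey line is the median of all starts (-0.15) and dashed lines mark 2-fold; the myeloid targets have a median of 1.51, the B cell targets one of -1.27, and Spib lies at -1.60.

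The starts most like each member over the 15 libraries were found by Euclidean distance between log2 levels, leaving out starts within 30 kb. For Sfpi1 they were Ppp2ca (distance 1.2), Ncf4 (1.22), H6pd (1.32), S100a6 (1.40) and Dido1 (1.40), against a median of 12.6 over all starts. For Spib they were Tbxa2r (1.49), Pygm (1.81), Pde4c (1.81), Gngt2 (1.89) and Acy3 (1.92), against 10.0. Tbxa2r held 666, 195, 130, 120 and 99 H3K27Ac tags. For Spic they were Ttpa (1.11), Nell1 (1.17), Vmn1r81 (1.18), Gm9913 (1.2) and Lyzl1 (1.2), against 7.41, all starts with few tags in the active marks.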

How the data were processed

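The data were ChIP-seq tags for H3K4Me1, H3K27Ac and H3K27Me3 from C10 cells, 15 libraries with 1 per mark and time. The authors aligned reads to mm9 with Eland or Bowtie without mismatches, per the methods, and removed non-unique and identical tags; the aligner of each library is not given in the sources used here. The deposited files list tag positions of 36 bases without strand, so tags could not be moved towards the fragment centre, and depth is the number of tags. Identical positions remained (0 to 5.57% of tags per library), with a limit per position that differed between libraries, and were reduced to 1 tag. Tags on 20 chromosomes were placed at their middle base and thinned (seed 1) to 10913733, 15216488 and 15338280 tags for H3K4Me1, H3K27Ac and H3K27Me3. Reducing tags to 1 per position compresses the highest levels.

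Starts came from GENCODE vM1 on NCBIM37 (mm9), taking the coding transcript with the longest coding sequence. Windows were 3 kb and bins 1 kb. Intervals were exact Poisson intervals for counts and exact binomial intervals for ratios. Named genes were the members, up to 4 genes per direction and list with the largest H3K27Ac change past 2-fold with at least 20 tags in the higher library, the 5 starts most like each member, and in each interval the bins with most tags at 0 h and at 48 h and with the largest and smallest change, beside neighbouring genes. Ehf and Mybpc2 were named after their values were seen. Members, lists and motifs were chosen with earlier results of these data known. Counting was tested on simulated data. Alternatives were 2 other scales, all tags, a second thinning, tags as deposited, other windows, starts, added tags and thresholds. Python 3.11.15 with NumPy, SciPy and pandas was used. Gfi1, Syk and Cd20 had no matching symbol or start, but Cd20 is another name of Ms4a1, which was in the same list and was measured.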

Additional observations from a re-analysis of the deposited data

How the results depend on the processing

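Of 371 alternative values for 82 results, 326 stayed within the 95% counting interval of the value given (for counts, within 1.5 times) and 45 moved. Direction was checked only for the called ratios, H3K27Ac at the Spib start and both active marks over the Spib interval, and none of these changed direction. Some ratios under 2-fold did change sign, such as H3K27Ac at the Sfpi1 start (-0.21 to 0.20 over bins enriched at all times). The limits of these data are that each mark and time had 1 library, so no spread between replicates is known, no replicate could be left out, and an interval covers counting error only. No paired analysis was possible because no group had a second sample. The scale of each mark is not fixed by the files, tags carry no strand, and 1 tag per position compresses the highest H3K27Ac levels. The correction for filled positions, added after seeing the data, moved none of the 12 ratios it was applied to beyond its interval, though it took H3K4Me1 at the Sfpi1 element from -0.89 to -1.02, nor did a second thinning (21 ratios) or a 1 kb window (12 ratios).

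Setting the libraries equal over bins without enrichment gave 48 h ratios in H3K4Me1 of 0.80 at the Sfpi1 start, -0.17 at the Spib start, -0.35 at the Sfpi1 element, 1.04 over the Sfpi1 interval, -0.66 over the Spib interval and 1.18 over the Spic interval, and 0.23 in H3K27Ac over the Sfpi1 interval. Setting them equal over bins enriched at all 5 times gave H3K27Ac ratios of 0.20 at the Sfpi1 start, -1.20 at the Spib start, 0.20 at the Sfpi1 element, 0.71 over the Sfpi1 interval and -0.96 over the Spib interval. A 6 kb window gave -0.13 in H3K4Me1 and -0.0097 in H3K27Ac at the Sfpi1 start, -1.16 in H3K4Me1 at the Spib start, and -0.42 and -0.069 in these marks at the Sfpi1 element. The 5′ end of the gene model, which for Sfpi1 lies at the element, gave -0.96 in H3K4Me1. On equal library totals the 48 h ratio in H3K4Me1 was 0.49 over the Sfpi1 interval (1897 to 2665 tags) and 0.66 over the Spic interval (45 to 74). Over bins without enrichment both passed 2-fold, so these 2 calls depend on the scale.

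Among enriched bins, only counts at Spic moved: a grid shifted by 500 bp gave 0 bins in place of 1 for H3K4Me1 at 12 h and for H3K27Ac at 24 h and 2 in place of 1 for H3K27Me3 at 12 h, and the stricter Poisson tail gave 0 for the latter 2.

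Of all starts, over bins without enrichment 1527 were called higher and 956 lower in H3K4Me1 (735 and 2145 in the report), and 275 lower in H3K27Me3 (420); over bins enriched at all times 2110 were higher and 1129 lower in H3K27Ac (1177 and 2092), and 176 higher in H3K27Me3 (351). With 1 tag added the counts were 1403 higher and 5540 lower in H3K4Me1, 2429 and 4208 in H3K27Ac, and 1331 and 1658 in H3K27Me3. For H3K27Me3 a 6 kb window gave 123 higher and 266 lower, and all tags divided by the library total gave 129 and 253. The share of higher among called starts went from 36% to 65.1% in H3K27Ac over bins enriched at all times, from 25.5% to 61.5% in H3K4Me1 over bins without enrichment, and in H3K27Me3 from 45.5% to 62.4% and 24.9% on these scales, 31.6% in the 6 kb window and 33.8% with all tags. Of the lists, bins enriched at all times gave 1 lower among other Ets genes, 1 higher and 5 lower among regulators and partners, 7 lower among B cell targets, and 6 higher and 0 lower among the genes of the macrophages in which Spi-C acts.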

Other observations

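Upstream of the Spic interval, looked at after the edge bin had been seen, H3K27Ac held 131, 217, 147, 172 and 138 tags between -49 and -48 kb from the main start, with the highest count at 3 h on equal library totals. Gene starts were not looked up there, and no gene is tied to this peak here. The bins from -47 to -44 kb held 7 to 28 H3K27Me3 tags at any time, where the bins of the Spic interval held at most 16 and those from -34 to -30 kb at most 20. In H3K4Me1 the bin from -46 to -45 kb held 0, 3, 3, 15 and 18 tags, which passed the 13 tags of an enriched bin at 24 and 48 h, and the bins between -44 and -30 kb had at most 12.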
